A study of Mus musculus with 6 samples.

Results

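The 35 genes described here encode subunits of respiratory complexes II, III, IV and V, and also cytochrome c and the ATP synthase inhibitor factor. The rule lists them by name and uses no measured level. All 35 were found among the 24415 genes of the count table, 34 by symbol and 1, Atp5f1, by an older name (RefSeq lists it as Atp5pb). RNA sequencing was done on inguinal white adipose tissue, the subcutaneous fat pad of the groin, from 3 mice labelled Hsp20 KO and 3 WT mice, with 1 library per mouse. All 6 mice were of the C57BL/6 strain, 12 weeks old and not fasted. Hsp20, a small heat shock protein, is the product of the gene Hspb6. The labels do not say which part of the gene the KO allele lacks, in which cells it is lost, or whether the mice were littermates.

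The respiratory chain of the inner mitochondrial membrane passes electrons to oxygen and pumps protons as it does so. Complex II takes electrons from succinate, complex III passes them to cytochrome c, and complex IV hands them to oxygen. Complex V, the ATP synthase, lets protons flow back and makes ATP. In brown and beige fat cells the uncoupling protein Ucp1 gives protons another way back, which releases heat. Mouse brown fat is known for a large respiratory chain with comparatively little ATP synthase.

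Library totals ran from 14078936 to 27937060 counts in the libraries labelled Hsp20 KO and from 26146472 to 32648746 in WT. Levels are in CPM, a gene's count relative to the TMM-adjusted total of its library. Hspb6 had 8.86, 1.51 and 3.94 CPM in the libraries labelled Hsp20 KO (replicates 1, 2 and 3, the order used throughout), against 12.6, 9.43 and 8.95 CPM in WT. Its level in the library labelled Hsp20 KO replicate 1 was therefore close to WT, against its label. Hspb6 had a log2 change of -1.08 ± 0.51 (SE), with an edgeR adjusted p of 0.227, and -1.99 with an edgeR adjusted p of 0.0221 without that library. That library was singled out by its Hspb6 level, so the values without it cannot serve as a test of Hspb6. The same library lay nearest to WT on the first principal component of all genes, which held 51.6% of the variance. Each count of members called is therefore also given without it. Leaving out the library of its group that lies nearest to WT favours larger differences between the groups. The counts and adjusted p values without it therefore cannot serve as a test of the members or of the other gene lists either.

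The 35 genes were higher as a group in the mice labelled Hsp20 KO. Together they had 7492, 9064 and 9797 CPM in the libraries labelled Hsp20 KO, against 6174, 6037.0 and 6039 CPM in WT. All 3 libraries labelled Hsp20 KO stood above all 3 WT libraries, with replicate 1 nearest to WT. By edgeR's quasi-likelihood test with Benjamini-Hochberg adjustment over all 15994 genes tested, 22 of the 35 rose and 0 fell, at an adjusted p under 0.05. Of all genes tested, 7.65% were called, 4.23% higher and 3.42% lower. The median log2 change of the 35 was 0.52, against 0.0006146 for all genes tested, and 34 of the 35 changes were positive, as were 50.1% over all genes. In 31 of the 35, every library labelled Hsp20 KO lay above every WT library, which held for 16.9% of all genes tested. The other 4, Cox7c, Atpif1, Atp5g1 and Atp5g3, overlapped between the groups. In bulk tissue, fewer cells of a type and less RNA per cell cannot be told apart, and the same holds for more of either.

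**Figure D1:**
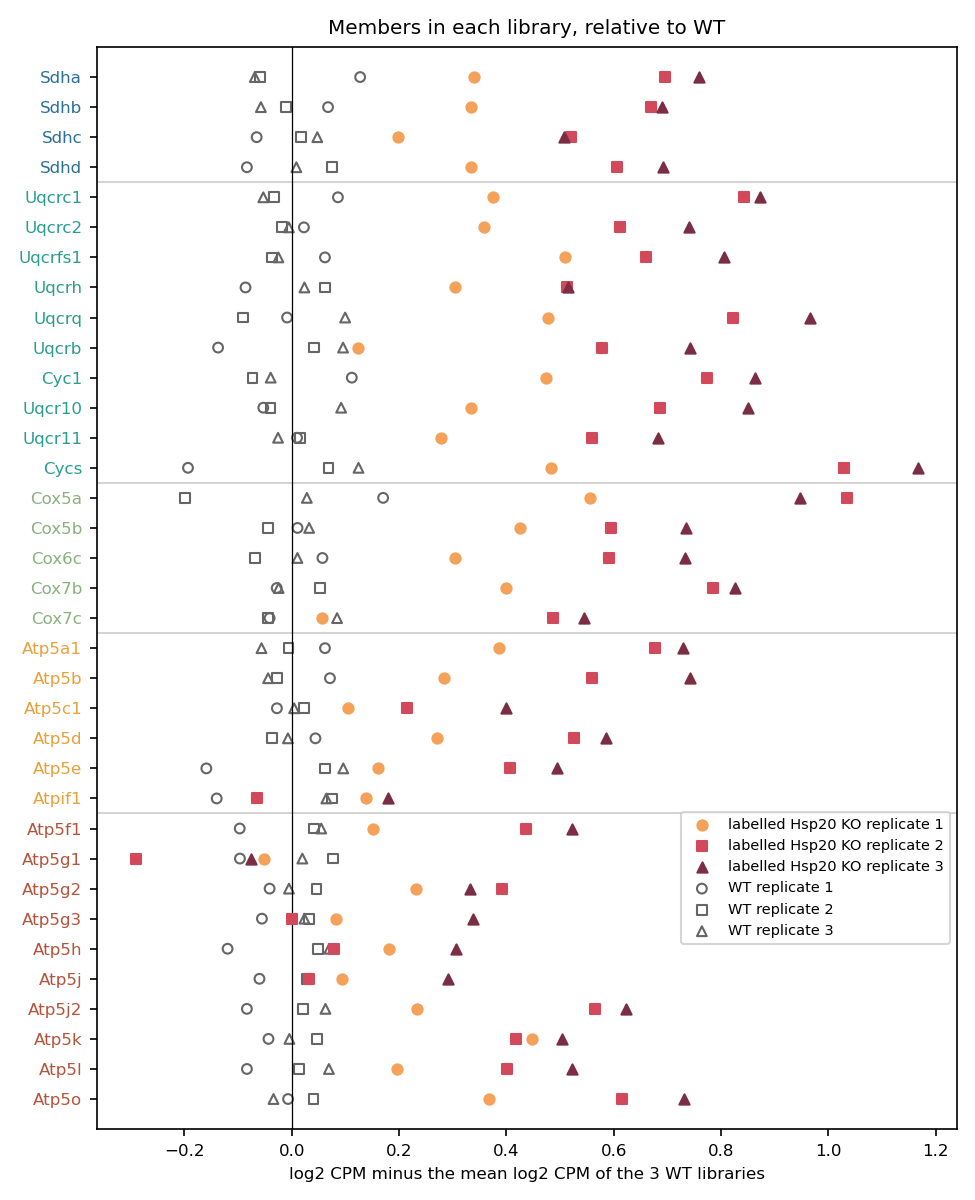
Level of each of the 35 genes in each library, as log2 CPM minus the mean log2 CPM of the 3 WT libraries, with filled points for the libraries labelled Hsp20 KO and open points for WT. Replicate 1 labelled Hsp20 KO was the lowest library of its group in 29 of 35 genes, and replicate 3 was the highest of all 6 libraries in 31.

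The number of calls depended on single libraries. Without the library labelled Hsp20 KO replicate 1, 29 of the 35 were called higher, with a median log2 change of 0.65, and 0 were called lower, when 5.82% of all genes tested were called higher and 4.52% lower. Without replicate 2 labelled Hsp20 KO, 7 were called higher, and without replicate 3 labelled Hsp20 KO, 7, beside 2% and 2.01% of all genes tested. Without WT replicate 1, 6 were called higher, beside 2% of all genes. Without WT replicate 2 or WT replicate 3, edgeR called 0 of the 35, and only 0.488% and 0.464% of all genes were called higher. At an unadjusted p under 0.05, those 2 fits had 28 and 29 members higher. All 6 libraries gave 30, beside 13.3% of all genes tested, a share that was not computed for the left-out fits. The median log2 change stayed between 0.44 and 0.65 over the 6 left-out fits. Uqcrfs1, Uqcrq, Cyc1, Cox5b and Atp5k were each called in 4 of these 6 fits, the highest number reached. No member was called lower, or was lower at an unadjusted p under 0.05, in any of them, nor by edgeR, DESeq2 or limma-voom on all 6 libraries.

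**Figure D2:**
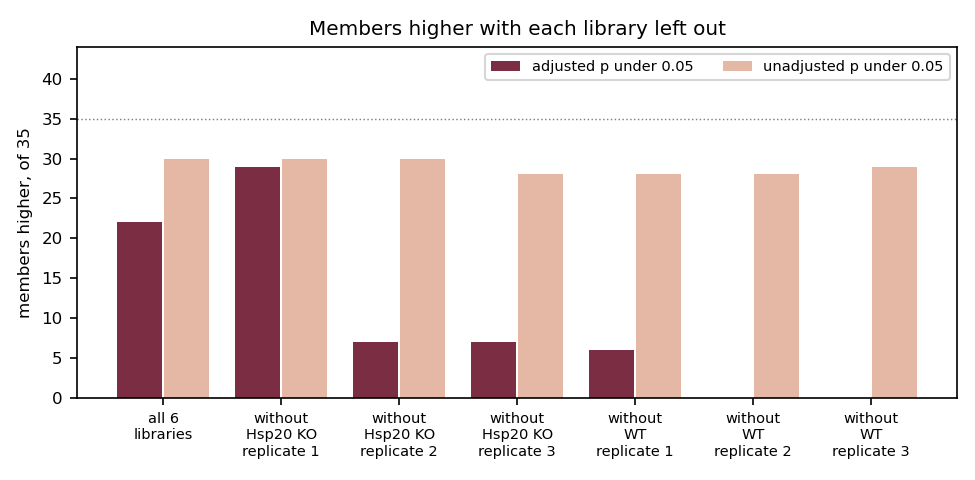
Number of the 35 genes that were higher in the libraries labelled Hsp20 KO, with all 6 libraries and with each library left out in turn, at an adjusted p under 0.05 (dark bars) and an unadjusted p under 0.05 (light bars). The adjusted count ran from 0 to 29, while the unadjusted count stayed between 28 and 30.

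The counts differed between the complexes. Of the 19 genes of complexes II to IV and cytochrome c, 16 rose, with a median log2 change of 0.59, and 18 did not overlap between the groups. Of the 16 ATP synthase genes, 6 rose, with a median log2 change of 0.37, and 13 did not overlap. Over all genes tested, 4.23% were called higher, and 16.9% had every library labelled Hsp20 KO above every WT library. Without the library labelled Hsp20 KO replicate 1, the counts were 19 of 19 and 10 of 16, and with each other library left out they fell in every complex, as given for each. Measured from the WT mean, the median gene of complexes II to IV lay at 0.34, 0.66 and 0.74 log2 units in the libraries labelled Hsp20 KO, against 0.01, -0.03 and 0.01 in WT. The median ATP synthase gene lay at 0.19, 0.40 and 0.50 log2 units in the libraries labelled Hsp20 KO, against -0.06, 0.04 and 0.02 in WT. The ATP synthase genes lay lower than the chain genes in each of the 3 libraries labelled Hsp20 KO. The difference between the 2 sets was not tested.

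**Figure D3:**
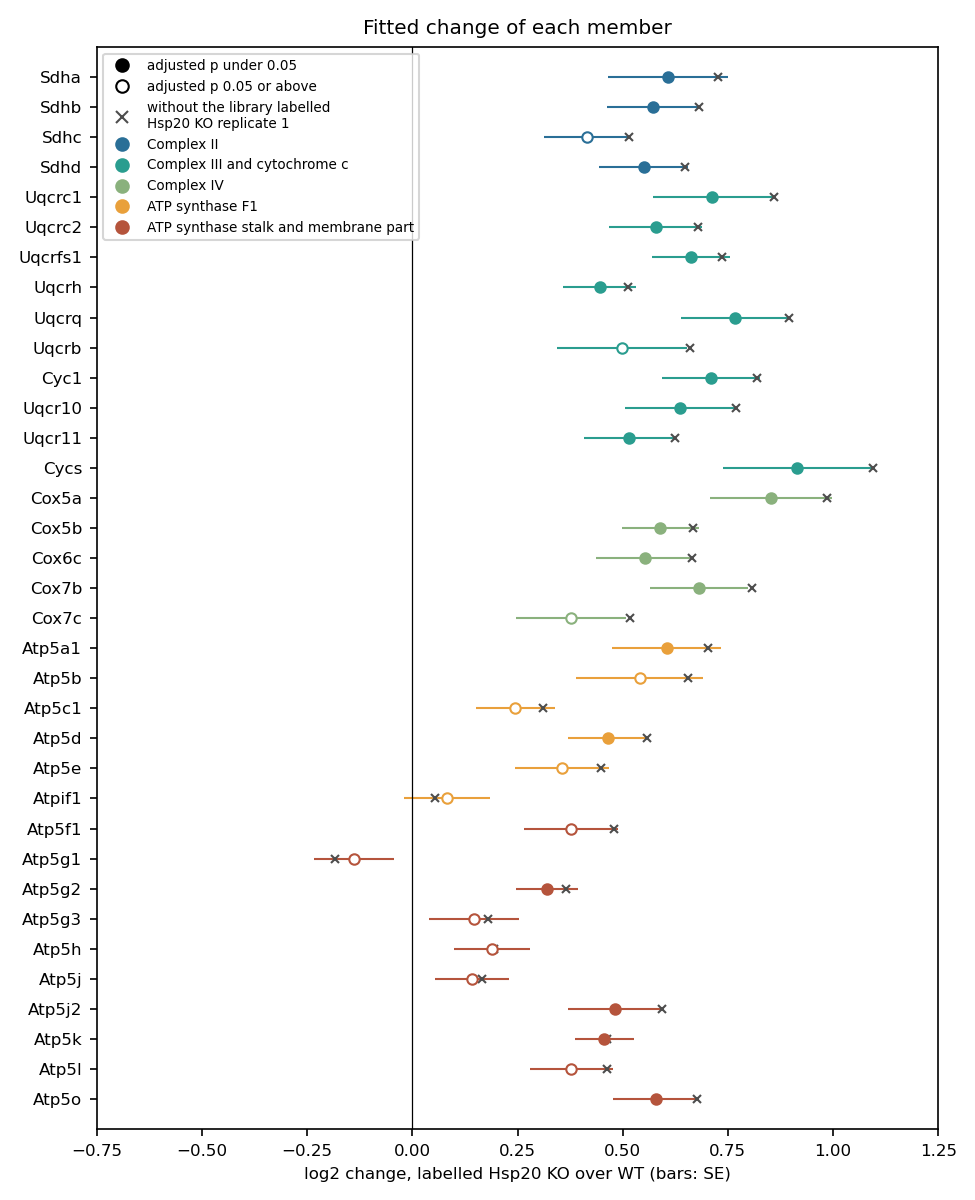
Fitted log2 change of each gene, labelled Hsp20 KO over WT, with bars of 1 SE, filled where the adjusted p was under 0.05 and with a cross for the value without the library labelled Hsp20 KO replicate 1. Cycs had the highest change at 0.92 and Atp5g1 the lowest at -0.14.

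Complex II, succinate dehydrogenase, is the enzyme shared by the citric acid cycle and the respiratory chain. Of its 4 subunits, 3 rose. Sdha, the flavoprotein subunit that oxidises succinate, had 714, 914 and 956 CPM in the libraries labelled Hsp20 KO, against 616, 542 and 538 CPM in WT. The groups did not overlap, and the lowest Sdha level of the mice labelled Hsp20 KO was in replicate 1. Its log2 change was 0.61 ± 0.14 (SE), with an edgeR adjusted p of 0.0443. Sdhb, the iron-sulfur subunit, had 153, 194 and 196 CPM in the libraries labelled Hsp20 KO, against 128, 121 and 117 CPM in WT, a fold change of 1.49 with no overlap. Sdhd, a membrane anchor that binds heme, averaged 157 ± 19.7 CPM in the mice labelled Hsp20 KO and 107 ± 5.88 CPM in WT (SD, n = 3 each, as for all means below), a fold change of 1.46. Its partner anchor Sdhc had 138, 172 and 171 CPM in the libraries labelled Hsp20 KO, against 115, 121 and 124 CPM in WT. These groups did not overlap either, but the log2 change of 0.41 ± 0.10 (SE) had an edgeR adjusted p of 0.0512, and 0.0116 without replicate 1 labelled Hsp20 KO. Without that library all 4 subunits were called, and with any other library left out edgeR called 0, while all 4 were higher at an unadjusted p under 0.05 in each case.

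The promoters of 28 of the 35 genes were matched in a RefSeq table of GRCm38.p6, as 31 windows from 250 bases before to 50 bases after a transcript start. In 22 of the 31 that start was the 5′ end of the gene, and in the other 9 it lay inside the gene. For 24 of the 31, the last 25 bases of the window were found in the first 400 bases of a GENCODE transcript of the gene. The windows were searched on both strands for exact matches to 5 motifs of factors known to act on respiratory genes. Sites that differ from a motif by a base were not counted. The NRF1 motif was taken as GCGCA and GCGC with any base between them. It was found in 10 of the 28 genes (35.7%), against 9.88% of the 12404 tested genes that had a window, the reference for each motif. CCGGAAG, the GABPA (NRF-2) motif, was found in 9 (32.1%), against 17.5%. TNAAGGTCA, a motif of the estrogen-related receptors, was found in 2 (7.14%), against 1.02%. AANATGGCG, the YY1 motif, was found in 4 (14.3%), against 5.04%. GGGGCGGGG, an SP1 motif, was found in 5 (17.9%), against 22.8%. The matches of different motifs shared no base. The windows of Sdha and Sdhd are shown because they held the most matches, with the matches in capitals. Sdha (minus strand, chr13:74350191-74350490) held the NRF1 motif at 3 places. Sdhd (minus strand, chr9:50603800-50604099) held the NRF1 motif, then the GABPA motif and the estrogen-related receptor motif, each as its reverse complement.
Sdha: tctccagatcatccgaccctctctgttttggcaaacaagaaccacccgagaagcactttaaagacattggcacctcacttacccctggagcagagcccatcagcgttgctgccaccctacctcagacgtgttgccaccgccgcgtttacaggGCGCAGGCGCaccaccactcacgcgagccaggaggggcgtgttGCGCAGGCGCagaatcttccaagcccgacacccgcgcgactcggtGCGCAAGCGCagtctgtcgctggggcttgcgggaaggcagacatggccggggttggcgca
Sdhd: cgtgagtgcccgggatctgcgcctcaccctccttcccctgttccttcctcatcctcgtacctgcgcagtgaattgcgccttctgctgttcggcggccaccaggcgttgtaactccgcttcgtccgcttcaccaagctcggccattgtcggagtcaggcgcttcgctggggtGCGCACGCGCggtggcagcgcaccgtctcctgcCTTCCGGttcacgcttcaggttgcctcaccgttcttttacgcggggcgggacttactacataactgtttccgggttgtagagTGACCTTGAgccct

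Complex III, the cytochrome bc1 complex, and its electron acceptor cytochrome c had the largest median change of the 5 groups of members, 0.65 on the log2 scale. Of these 10 genes, 9 rose, and none of the 10 overlapped between the groups. Cycs is the somatic cytochrome c gene (gene ID 13063, chromosome 6, 50562563 to 50566569 on GRCm38.p6). It had 173, 252 and 278 CPM in the libraries labelled Hsp20 KO, against 108, 129.6 and 135 CPM in WT. Its lowest level in the mice labelled Hsp20 KO, in replicate 1, was above its highest WT level, and replicates 2 and 3 stood well above both. Cycs had a log2 change of 0.92 ± 0.18 (SE), the largest of the 35, with an edgeR adjusted p of 0.0275 and a fold change of 1.89. Of its transcript's 50-base stretches, 28.5% also occur in transcripts of other genes, 76 in all, so its counting is uncertain. Its promoter window (minus strand, chr6:50566520-50566819) held no exact match to the 5 motifs and is shown as that of the gene with the largest change.
Cycs: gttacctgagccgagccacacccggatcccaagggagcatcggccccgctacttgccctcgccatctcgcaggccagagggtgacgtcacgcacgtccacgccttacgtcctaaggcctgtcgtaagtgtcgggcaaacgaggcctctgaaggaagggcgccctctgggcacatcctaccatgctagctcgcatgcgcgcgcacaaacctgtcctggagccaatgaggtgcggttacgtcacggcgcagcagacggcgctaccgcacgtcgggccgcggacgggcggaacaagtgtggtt

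Among the catalytic subunits of complex III, Uqcrfs1, the Rieske iron-sulfur protein, had 153, 170.2 and 188 CPM in the libraries labelled Hsp20 KO, against 112, 105 and 106 CPM in WT. The 3 levels in mice labelled Hsp20 KO were far above the narrow WT range. Its log2 change of 0.66 ± 0.09 (SE) had the lowest edgeR adjusted p of the 35, 0.0113, and no 50-base stretch of its transcript is shared with another gene. In 16 of the 35, over 10% of these stretches also occur in transcripts of other genes. Among them were Uqcrb at 43.4%, Cox5b at 25.9%, Uqcrc2 at 24.8%, Cox6c at 21.1%, Atpif1 at 16.1% and Uqcr11 at 10.9%. The counting of these genes is uncertain. Cyc1, cytochrome c1, averaged 236 ± 32.3 CPM in the mice labelled Hsp20 KO, against 156, 137 and 140.2 CPM in WT, a fold change of 1.64 with no overlap. The core proteins Uqcrc1 and Uqcrc2, which form the matrix side of the complex, had fold changes of 1.64 and 1.49. Uqcrc1 averaged 326 ± 59.3 CPM in the mice labelled Hsp20 KO and 199 ± 10.5 CPM in WT. Uqcrc2 averaged 315 ± 41.6 CPM in the mice labelled Hsp20 KO and 211 ± 3.04 CPM in WT.

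The small subunits of complex III followed, with Uqcrq the most changed of them. Uqcrq averaged 147 ± 24.6 CPM in the mice labelled Hsp20 KO and 86.1 ± 5.74 CPM in WT, a fold change of 1.70 with an edgeR adjusted p of 0.0177. Uqcr10 and Uqcr11 had fold changes of 1.55 and 1.43. Uqcrh, the hinge protein beside cytochrome c1, had the smallest change of the 10, with 119, 137 and 137 CPM in the libraries labelled Hsp20 KO, against 90.6, 100.5 and 97.8 CPM in WT. Its groups stood apart, with a log2 change of 0.44 ± 0.09 (SE) and an edgeR adjusted p of 0.0279. Uqcrb, the ubiquinone-binding subunit, had 74.8, 103 and 115 CPM in the libraries labelled Hsp20 KO, against 62.5, 70.7 and 73.4 CPM in WT. Replicate 1 labelled Hsp20 KO barely exceeded the highest WT library, and the log2 change of 0.50 ± 0.15 (SE) had an edgeR adjusted p of 0.0919, or 0.0111 without that library. All 10 genes were called without that library. With replicate 2 or replicate 3 labelled Hsp20 KO or WT replicate 1 left out, 3 were called each time, and without WT replicate 2 or WT replicate 3 edgeR called 0, with all 10 higher at an unadjusted p under 0.05.

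Complex IV, cytochrome c oxidase, is represented by 5 of its nuclear subunits, which surround a core encoded by mitochondrial DNA. The subunits encoded by mitochondrial DNA were not analysed here. Of the 5 nuclear subunits, 4 rose. Cox5a, a matrix-side subunit, had 111, 154 and 145 CPM in the libraries labelled Hsp20 KO, against 84.6, 65.5 and 76.7 CPM in WT. All 3 mice labelled Hsp20 KO were above WT, and the WT mice themselves were spread more widely than for most of the 35 genes. For Cox5a the log2 change was 0.85 ± 0.15 (SE), with an edgeR adjusted p of 0.0188. Cox5b, the zinc-binding subunit, averaged 129.7 ± 13.8 CPM in the mice labelled Hsp20 KO and 86.2 ± 2.33 CPM in WT. Cox7b averaged 103 ± 15.9 CPM in the mice labelled Hsp20 KO and 63.9 ± 2.02 CPM in WT, a fold change of 1.60. Cox6c had a fold change of 1.47.

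Cox7c, a small membrane subunit, was the complex IV member that did not pass. It had 115, 155 and 161 CPM in the libraries labelled Hsp20 KO, against 107, 107 and 117 CPM in WT. Replicate 1 labelled Hsp20 KO lay within the WT range, and the other 2 lay above it. The Cox7c log2 change was 0.38 ± 0.13 (SE), with an edgeR adjusted p of 0.122, and 0.52 with an edgeR adjusted p of 0.0134 without that library. Of its transcript's 50-base stretches, 53.0% occur in transcripts of other genes, and the share was 32.0% for Cox5a. All 5 subunits were called without replicate 1 labelled Hsp20 KO, 3 without replicate 2, 2 without replicate 3 and 2 without WT replicate 1. Without WT replicate 2 or WT replicate 3, edgeR called 0, with 4 and 5 higher at an unadjusted p under 0.05.

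The F1 part of ATP synthase is the catalytic head in the matrix. Of its 6 genes, 2 rose, Atp5a1 and Atp5d, and the median log2 change was 0.41. Atp5a1, the alpha subunit, had 955, 1168 and 1213 CPM in the libraries labelled Hsp20 KO, against 763, 728 and 703 CPM in WT. The groups did not overlap, and the log2 change was 0.60 ± 0.13 (SE) with an edgeR adjusted p of 0.0359. Atp5d, the delta subunit at the foot of the central stalk, averaged 154 ± 17.3 CPM in the mice labelled Hsp20 KO and 111 ± 3.19 CPM in WT, a fold change of 1.38. Atp5b, the beta subunit that holds the catalytic sites, had 1585, 1919 and 2176 CPM in the libraries labelled Hsp20 KO, against 1368, 1277 and 1263 CPM in WT. Its mean of 988 ± 155 RPKM in the mice labelled Hsp20 KO and 679.7 ± 29.7 RPKM in WT was the highest level per transcript length among the 34 genes whose length could be set. The groups did not overlap, but the 3 mice labelled Hsp20 KO differed widely. The log2 change of Atp5b was 0.54 ± 0.15 (SE), with an edgeR adjusted p of 0.0695, or 0.0226 without replicate 1 labelled Hsp20 KO.

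Atp5c1 and Atp5e, the other subunits of the central stalk, had smaller changes than Atp5d and did not pass. Atp5c1, the gamma subunit that turns inside the head, had 202, 217 and 247 CPM in the libraries labelled Hsp20 KO, against 184, 190.4 and 188 CPM in WT. The groups were close without overlapping, and the log2 change of 0.24 ± 0.09 (SE) had an edgeR adjusted p of 0.151. Atp5e, the epsilon subunit, had 82.1, 97.4 and 104 CPM in the libraries labelled Hsp20 KO, against 65.8, 76.7 and 78.5 CPM in WT. Replicate 1 labelled Hsp20 KO was just above the highest WT level, and the log2 change of 0.36 ± 0.11 (SE) had an edgeR adjusted p of 0.0938, or 0.0389 without that library.

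Atpif1, the inhibitor that binds F1 and stops it from splitting ATP, had 22.4, 19.4 and 23.0 CPM in the libraries labelled Hsp20 KO, against 18.4, 21.4 and 21.3 CPM in WT. Its levels were mixed between the groups, and replicate 2 labelled Hsp20 KO was lower than 2 of the WT libraries. The log2 change of Atpif1 was 0.08 ± 0.10 (SE), with an edgeR adjusted p of 0.66, and it was 0.05 without replicate 1 labelled Hsp20 KO. Per length it was also the lowest of the 34 genes, at 40.1 ± 3.56 RPKM in the mice labelled Hsp20 KO and 37.8 ± 3.10 RPKM in WT. Without replicate 1 labelled Hsp20 KO, 4 of the 6 F1 genes were called. With any other library left out edgeR called 0, with 4 or 5 of them higher at an unadjusted p under 0.05.

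The stalk and membrane part of ATP synthase holds the proton channel, the ring of c subunits and the outer stalk that keeps the head still. Of its 10 genes, 4 rose, Atp5g2, Atp5j2, Atp5k and Atp5o, and the median log2 change was 0.35. Atp5o, the OSCP subunit that ties the outer stalk to the head, had 140.3, 167 and 180.5 CPM in the libraries labelled Hsp20 KO, against 108, 112 and 106 CPM in WT. All 3 mice labelled Hsp20 KO were clearly above the narrow WT range. Atp5o had a log2 change of 0.58 ± 0.10 (SE), the largest of this group, with an edgeR adjusted p of 0.0214. Atp5k, subunit e of the membrane part, averaged 46.1 ± 1.40 CPM in the mice labelled Hsp20 KO and 33.6 ± 1.06 CPM in WT. It was called with an edgeR adjusted p of 0.0146, and replicate 1 labelled Hsp20 KO, at 45.8 CPM, was as high as the other 2. Atp5j2, subunit f, averaged 141 ± 19.7 CPM in the mice labelled Hsp20 KO and 101 ± 5.22 CPM in WT, a fold change of 1.40.

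Of the outer stalk and membrane genes other than those of subunit c, Atp5f1, Atp5l, Atp5h and Atp5j had positive changes that did not pass. Atp5f1, subunit b, had 202, 246 and 262 CPM in the libraries labelled Hsp20 KO, against 170.2, 187 and 189 CPM in WT. The groups did not overlap, and the log2 change of 0.38 ± 0.11 (SE) had an edgeR adjusted p of 0.0824. Atp5l, subunit g, had 124, 143 and 155 CPM in the libraries labelled Hsp20 KO, against 102, 109 and 113 CPM in WT. Its groups were apart as well, and the log2 change of 0.38 ± 0.10 (SE) had an edgeR adjusted p of 0.0599. Atp5f1 and Atp5l were called without replicate 1 labelled Hsp20 KO, with edgeR adjusted p values of 0.0221 and 0.0228.

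Atp5h and Atp5j, subunits d and F6 of the outer stalk, had small changes with and without that library. Atp5h had 139, 129 and 151 CPM in the libraries labelled Hsp20 KO, against 112, 126 and 128 CPM in WT. Replicate 2 labelled Hsp20 KO was hardly above the highest WT library, and the log2 change of 0.19 ± 0.09 (SE) had an edgeR adjusted p of 0.237. Atp5j had 110.5, 106 and 127 CPM in the libraries labelled Hsp20 KO, against 99.3, 106 and 106 CPM in WT. Its replicate 2 labelled Hsp20 KO was level with WT replicates 2 and 3, and the log2 change of 0.14 ± 0.09 (SE) had an edgeR adjusted p of 0.348. Of the 50-base stretches of the transcripts, 84.8% were shared with transcripts of other genes for Atp5l, 50.5% for Atp5h, 38.7% for Atp5f1, 34.0% for Atp5o and 14.4% for Atp5j, so the counting of these genes is uncertain.

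Subunit c, whose copies form the rotating ring in the membrane, is encoded by 3 genes that give the same mature protein, Atp5g1, Atp5g2 and Atp5g3. Atp5g1 (gene ID 11951, chromosome 11, 96072793 to 96075694 on GRCm38.p6) had 26.9, 22.8 and 26.4 CPM in the libraries labelled Hsp20 KO, against 26.0, 29.4 and 28.2 CPM in WT. It had the only negative change of the 35 genes, with 2 of the 3 mice labelled Hsp20 KO inside the WT range and replicate 2 below it. The log2 change of Atp5g1 was -0.14 ± 0.09 (SE), with an edgeR adjusted p of 0.398, and it was -0.18 without replicate 1 labelled Hsp20 KO. Atp5g2 had 102, 114 and 109.6 CPM in the libraries labelled Hsp20 KO, against 84.5, 89.8 and 86.7 CPM in WT. It rose without overlap between the groups, by 0.32 ± 0.07 (SE) on the log2 scale, with an edgeR adjusted p of 0.0417. Atp5g3 had 251, 237 and 299.8 CPM in the libraries labelled Hsp20 KO, against 228, 243 and 241 CPM in WT. Replicate 2 labelled Hsp20 KO lay inside the WT range, and the log2 change of 0.15 ± 0.11 (SE) had an edgeR adjusted p of 0.427.

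**Figure D4:**
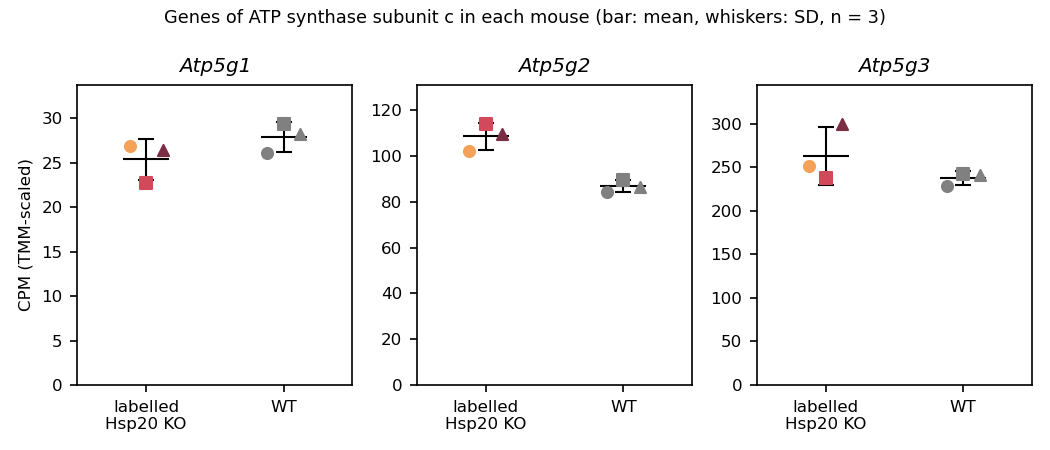
Level in CPM of the 3 genes of ATP synthase subunit c in each mouse, labelled Hsp20 KO on the left and WT on the right of each panel, with the mean and SD (n = 3). The levels of Atp5g2 stood apart between the groups, while those of Atp5g1 and Atp5g3 overlapped.

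The balance between the 3 genes was also compared within each library, where it does not depend on the scaling of that library. The log2 ratio of the Atp5g1 level to the Atp5g2 level was -1.93, -2.33 and -2.05 in the libraries labelled Hsp20 KO, against -1.70, -1.61 and -1.62 in WT. All 3 ratios were lower in the mice labelled Hsp20 KO, by a mean difference of -0.46, with an exact two-sided permutation p of 0.1, or 0.15 after adjustment over the 3 ratios. The log2 ratio of Atp5g1 to Atp5g3 was -3.23, -3.38 and -3.50 in the libraries labelled Hsp20 KO, against -3.13, -3.05 and -3.09 in WT. It too was lower in all 3, by a mean of -0.28, with an exact permutation p of 0.1. The ratio of Atp5g2 to Atp5g3 overlapped between the groups and differed by 0.18, with an exact permutation p of 0.3. With 3 mice against 3 the smallest exact p is 0.1, so no ratio could pass the threshold. Of the 50-base stretches of Atp5g2, 87.4% occur in transcripts of other genes, against 11.5% for Atp5g1 and 0 for Atp5g3. No level per length is given for Atp5g1, whose annotated transcripts differ too much in length.

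The promoter window of Atp5g1 (minus strand, chr11:96075582-96075881), shown as that of the gene with the lowest change, held no exact match to the 5 motifs. It belongs to a transcript start 63 bases inside the gene from its 5′ end.
Atp5g1: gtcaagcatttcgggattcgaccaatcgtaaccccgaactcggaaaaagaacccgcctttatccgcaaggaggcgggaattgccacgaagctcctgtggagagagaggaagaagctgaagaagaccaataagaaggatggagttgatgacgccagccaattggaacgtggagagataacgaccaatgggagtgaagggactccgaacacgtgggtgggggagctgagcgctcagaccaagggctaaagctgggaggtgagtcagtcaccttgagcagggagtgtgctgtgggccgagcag

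Over the 10 stalk and membrane genes, 6 were called without replicate 1 labelled Hsp20 KO, 1 without replicate 2, 2 without replicate 3 and 1 without WT replicate 1. Without WT replicate 2 or WT replicate 3 edgeR called 0, with 6 higher at an unadjusted p under 0.05. WT replicate 1 was the lowest WT library in 9 of these 10 genes, and in 19 of all 35. Replicate 2 labelled Hsp20 KO was the lowest of its group for Atpif1, Atp5g1, Atp5g3, Atp5h, Atp5j and Atp5k, whereas replicate 1 was the lowest for all 19 genes of complexes II to IV and cytochrome c.

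Levels per transcript length were compared over the 34 genes with a set length, in RPKM. After Atp5b, Atp5a1 followed with 450.1 ± 55.7 RPKM in the mice labelled Hsp20 KO and 296 ± 12.2 RPKM in WT. Atp5g3 had 366 ± 45.7 RPKM in the mice labelled Hsp20 KO and 331 ± 10.9 RPKM in WT. Cox6c had 354 ± 52.2 RPKM in the mice labelled Hsp20 KO and 242 ± 10.6 RPKM in WT. In the mice labelled Hsp20 KO, Atp5g3 and Cox6c did not differ beyond their spread, and in WT Atp5g3 stood above Atp5a1. At the low end, next to Atpif1, were Sdhc, with 50.5 ± 6.15 RPKM in the mice labelled Hsp20 KO and 37.9 ± 1.52 RPKM in WT, and Cycs, with 75.0 ± 17.5 RPKM in the mice labelled Hsp20 KO and 39.8 ± 4.53 RPKM in WT. In WT these 3 did not differ beyond their spread. Across the 34 genes, Spearman's rho between the log2 change and the WT level in RPKM was -0.30, and between the log2 change and transcript length it was 0.40, as descriptions over genes that share the same 6 libraries. Over the tested genes that had a set length, short transcripts had slightly higher changes. The median log2 change was 0.10 for the 905 genes under 1 kb and -0.06 for the 3827 genes over 4 kb. Of those under 1 kb, 6.85% were called higher.

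Genes that work with these complexes were counted in further lists. Their counts stand beside 4.23% of all genes tested called higher and 3.42% called lower. Complex I, the entry point for electrons from NADH, had 22 of 36 subunits higher, with a median log2 change of 0.48, and 33 without the library labelled Hsp20 KO replicate 1. Its leading genes were Ndufab1, the mitochondrial acyl carrier protein, with a fold change of 1.68 and an edgeR adjusted p of 0.0146, and Ndufa10, with a fold change of 1.71 and an edgeR adjusted p of 0.0167. Of 12 further complex IV subunits, 6 rose, with a median of 0.57. Cox7a1, the isoform of subunit VIIa of muscle and brown fat, had 7.30, 21.2 and 19.7 CPM in the libraries labelled Hsp20 KO, against 2.95, 1.83 and 1.78 CPM in WT. All 3 mice labelled Hsp20 KO were above WT and replicates 2 and 3 far above, with a log2 change of 2.87 and an edgeR adjusted p of 0.0126. Cox6b1, a widely expressed subunit, had a log2 change of 0.58 with an edgeR adjusted p of 0.0286. Of 4 further genes listed by name as ATP synthase subunits edgeR called 0, with 3 higher at an unadjusted p under 0.05 and 0 called by DESeq2 or limma-voom. Their lowest edgeR adjusted p values were 0.0972 for Atp5sl and 0.179 for Usmg5, a small subunit of the membrane part. RefSeq names Atp5sl Dmac2, which is known as an assembly factor of complex I and not as an ATP synthase subunit.

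The assembly factors had lower median changes than the 5 groups of members, a difference that was not tested. Of 6 complex III factors, 2 rose, and their median log2 change was 0.27. Lyrm7, which helps to insert the Rieske protein Uqcrfs1, had 8.28, 9.48 and 11.3 CPM in the libraries labelled Hsp20 KO, against 3.53, 3.98 and 3.66 CPM in WT. The groups were far apart, replicate 1 included, with a log2 change of 1.37 ± 0.16 (SE) and an edgeR adjusted p of 0.00594. Uqcc1, which is needed to make cytochrome b, had a fold change of 1.49 with an edgeR adjusted p of 0.0272. Of 21 complex IV factors, 4 rose, with a median of 0.27, led by Cox18, which inserts a core subunit into the membrane (fold change 1.81, edgeR adjusted p of 0.0174), and Cox15, which makes heme a (fold change 1.32, edgeR adjusted p of 0.0404). Of 4 complex II factors edgeR called 0, with 0 higher at an unadjusted p under 0.05 and 0 by DESeq2, and the lowest edgeR adjusted p values were 0.322 for Sdhaf4 and 0.637 for Sdhaf2. Of 4 ATP synthase factors edgeR called 0, with 1 higher at an unadjusted p under 0.05 and 1 by DESeq2. The lowest edgeR adjusted p values were 0.0591 for Atpaf2, a chaperone of the alpha subunit, and 0.2 for Fmc1. Of 14 genes of mitochondrial membranes and their partners, which include the matrix enzyme citrate synthase, 2 rose, Vdac1, the outer membrane channel (fold change 1.32), and Phb, prohibitin (fold change 1.31), and the median was 0.27.

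**Figure D5:**
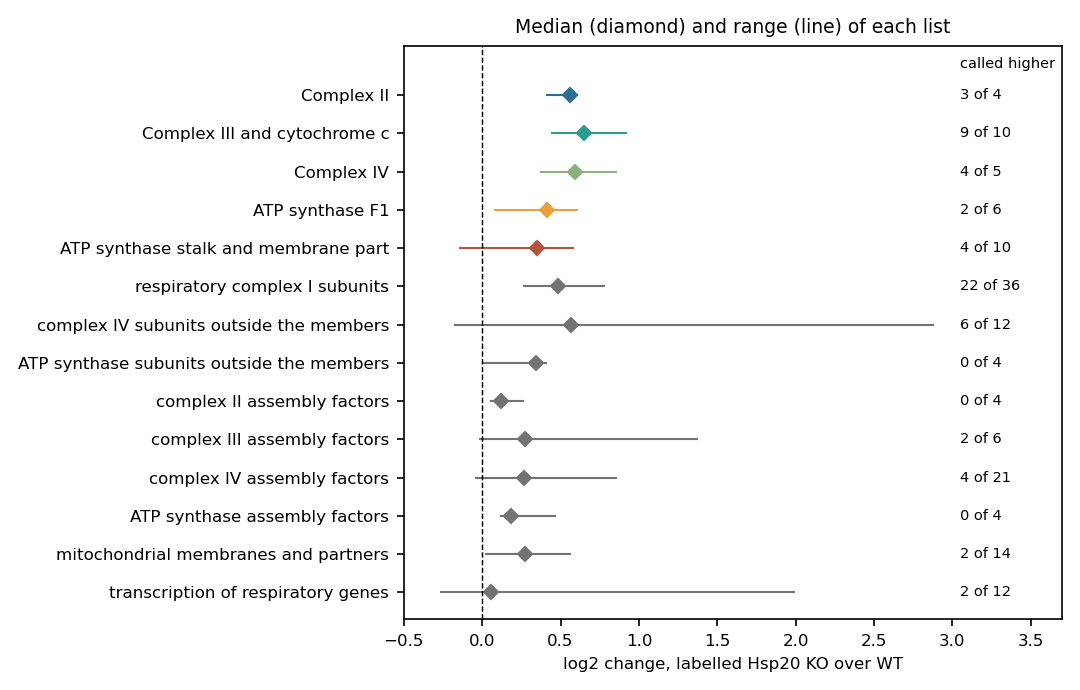
Median (diamond) and range (line) of the log2 change, labelled Hsp20 KO over WT, for the 5 groups of members in colour and the 9 pathway lists in grey, with the number of genes called higher of those tested. Group medians ran from 0.35 to 0.65 for the members, and the lists of assembly factors had medians from 0.12 to 0.27.

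Of 12 genes that regulate transcription of respiratory genes, 2 rose, and the median log2 change was 0.06. By edgeR 0 were called lower, and 0 by DESeq2 or limma-voom. At an unadjusted p under 0.05 in edgeR, 4 were higher and 1 was lower. In 4 of the 12, every library labelled Hsp20 KO lay above every WT library, which held for 16.9% of all genes tested. In 3, Nrf1, Pprc1 and Yy1, every library labelled Hsp20 KO lay below every WT library, which held for 15.6% of all genes tested. Esrra, estrogen-related receptor alpha, had 61.2, 77.3 and 74.5 CPM in the libraries labelled Hsp20 KO, against 42.9, 44.6 and 41.0 CPM in WT. Esrrg, estrogen-related receptor gamma, had 2.49, 7.10 and 5.35 CPM in the libraries labelled Hsp20 KO, against 1.20, 1.27 and 1.24 CPM in WT. Both were higher in every mouse labelled Hsp20 KO, by log2 changes of 0.73 ± 0.10 and 1.99 ± 0.37 (SE), with edgeR adjusted p values of 0.0113 and 0.0253. For the factors whose motifs were searched, chosen after their values were seen, the fitted log2 change was -0.26 for Nrf1 (edgeR adjusted p of 0.0664), -0.12 for Yy1 (edgeR adjusted p of 0.338) and 0.00 for Gabpa (edgeR adjusted p of 0.98). The coactivator Ppargc1a, also chosen after its values were seen, had 6.90, 7.74 and 11.3 CPM in the libraries labelled Hsp20 KO, against 13.1, 6.59 and 5.77 CPM in WT, and WT replicate 1 was the highest of the 6.

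The counts of these lists depended on single libraries as those of the members did. Without the library labelled Hsp20 KO replicate 1, edgeR called 9 of the further complex IV subunits, 6 of the complex IV factors, 7 of the mitochondrial membrane and partner genes and 3 of the transcription genes. It then called 2 complex III factors, 1 ATP synthase factor, 1 of the 4 genes listed as further ATP synthase subunits and 0 complex II factors. Complex I had 4, 6 and 4 called without replicate 2 labelled Hsp20 KO, replicate 3 labelled Hsp20 KO and WT replicate 1. The same 3 omissions gave 1, 2 and 1 for the further complex IV subunits. They gave 1 each for the complex III factors, the complex IV factors and the transcription genes, and 0 for the mitochondrial membrane and partner genes. Without WT replicate 2 or WT replicate 3, edgeR called 1 complex III factor and 0 genes of the other lists, although 35 of the 36 complex I subunits were then higher at an unadjusted p under 0.05.

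Among the marker lists of cell types, only that of brown adipocytes held genes called higher by edgeR with all 6 libraries. Whether that list tells brown from beige adipocytes was not tested. Brown adipocyte markers were called higher in 9 of 10, against 4.23% of all genes tested. Together they had 258, 738 and 843 CPM in the libraries labelled Hsp20 KO, against 104, 78.4 and 79.1 CPM in WT. Of these markers, Cox7a1 and Cox8b were also counted among the further complex IV subunits above. Ucp1 had 19.1, 165 and 308 CPM in the libraries labelled Hsp20 KO, against 2.64, 1.76 and 1.06 CPM in WT. Replicate 1 labelled Hsp20 KO stood nearest to WT for Ucp1, as it did for the 19 chain genes. Without it, 10 of the 10 markers were called, and 3 to 7 with another library left out. Markers listed for white adipocytes were present throughout, with 18395, 14050 and 19622 CPM in the libraries labelled Hsp20 KO, against 18408, 20515 and 18597 CPM in WT. Of these 8 markers edgeR called 0, and at an unadjusted p under 0.05, 1 was higher and 2 were lower. DESeq2 called 1 lower, and edgeR called 2 lower without replicate 1 labelled Hsp20 KO. Whether the list for white adipocytes tells them from brown adipocytes was not tested. The part of these cell types in the changes of the respiratory genes was not tested.

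Other marker lists were also summed. Blood transcripts were lower, with 5 of 5 called, against 3.42% of all genes tested. They had 4833, 4341 and 3963 CPM in the libraries labelled Hsp20 KO, against 8985, 10316 and 10245 CPM in WT. All 5 were called without replicate 1 labelled Hsp20 KO, 3 without WT replicate 2 and 3 without WT replicate 3. Hba-a1 and Hba-a2 in that list are near-identical copies. Skeletal muscle markers, genes of another tissue rich in mitochondria, had 65.2, 79.5 and 118 CPM in the libraries labelled Hsp20 KO, against 1036, 98.9 and 156 CPM in WT. The high value belonged to WT replicate 1, and edgeR called 0 of 11 (9 lower at an unadjusted p under 0.05, and 1 by DESeq2), and 0 without replicate 1 labelled Hsp20 KO. Without WT replicate 1 the median log2 change of the 35 respiratory genes was 0.50. Macrophage markers had 1423, 1146 and 1104 CPM in the libraries labelled Hsp20 KO, against 1344, 1470.4 and 1537 CPM in WT, with 0 of 8 called by edgeR (5 lower at an unadjusted p under 0.05, and 4 by DESeq2), and 5 called lower without replicate 1 labelled Hsp20 KO and 1 without replicate 2. Progenitor markers had 2123, 1363 and 1808 CPM in the libraries labelled Hsp20 KO, against 2003, 2083 and 2265 CPM in WT, and endothelial markers had 704, 713 and 826 CPM in the libraries labelled Hsp20 KO, against 808, 850.2 and 796 CPM in WT.

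Lymphocyte and mammary markers were summed for the same purpose, since the inguinal pad holds a lymph node and the mammary gland. B cell markers reached 799.7 CPM in replicate 2 labelled Hsp20 KO and at most 411 CPM in the other 2 libraries so labelled, against 619.7, 645 and 654 CPM in WT. T cell markers had 451, 472 and 321 CPM in the libraries labelled Hsp20 KO, against 327, 412 and 364 CPM in WT. Replicate 2 labelled Hsp20 KO was the highest of the 6 for both. Mammary epithelium markers were at or near 0, with at most 3.25 CPM summed, Wap at 0 counts in all 6 libraries and Csn2 at 0 in the 3 libraries labelled Hsp20 KO. Of the progenitor, endothelial, B cell, T cell and mammary markers, edgeR called 0 in either direction with all 6 libraries. At an unadjusted p under 0.05, 1 T cell marker was higher, and 1 progenitor, 1 endothelial and 1 T cell marker were lower, of which DESeq2 called 1 T cell marker lower. Without replicate 2 labelled Hsp20 KO, the library with the highest B cell level, 6 of 6 B cell markers were called lower, with a median log2 change of -0.69. That library is singled out here by its B cell level, so the values without it cannot serve as a test of the B cell markers. Without replicate 1 labelled Hsp20 KO, 2 progenitor markers were called lower. Of the T cell markers, 1 was called higher without replicate 3 labelled Hsp20 KO, and 1 was called lower without WT replicate 1. Their part in the changes of the respiratory genes was not tested.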

How the data were processed

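The authors deposited raw read counts, as whole numbers, in 1 table of genes with 1 column per mouse. The submitters' processing notes name the builds mm10 and GRCm38 and, as tools, TopHat, DESeq, bcl2fastq and CASAVA 1.8. Not given in the sources used here are the counter, the annotation and the strand setting. Overlapping and antisense genes may therefore share reads. Each column was assigned by the sample name that the labels give, and 0 columns of samples were unused. Of 24415 gene IDs, 24334 were matched to symbols in a RefSeq table of GRCm38.p6 and 7 more in GENCODE.

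The 35 members and all lists were chosen with earlier results of these data known. Every member is named. Values in every library are given for the largest and smallest change of each group of members, for Cycs, Atp5b, Atpif1 and Atp5g1 to Atp5g3, and for members not called. Lists are given by counts, with up to 2 genes of lowest adjusted p.

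The deposited counts were tested with edgeR 4.0.16 in R 4.3.3. Genes were kept by filterByExpr (groups by genotype, a minimum count of 10 and a minimum total of 15) and libraries were TMM-scaled. The quasi-likelihood F test compared the genotypes with no other term. P-values were adjusted by Benjamini-Hochberg over the 15994 genes tested, and calls used 0.05. Each SE was computed from the log2 change and its F statistic. The biological coefficient of variation was 14.8%. All 35 members passed the filter. RPKM used the median length of RefSeq-paired GENCODE transcripts, left blank where the longest was over 1.5 times the shortest. Library totals ran from 14078936 to 32648746 counts, and every member had at least 310 counts in every library. The labels do not say that the 3 mice of a group came from separate litters, and within a group every pair of libraries differed by more than sampling noise (a chi-square of 17.0 or more per degree of freedom). The scripts were tested on simulated data. Alternatives were other scaling, filters, DESeq2 1.42.0, limma-voom (limma 3.58.1), robust dispersions, a replicate block and each library left out.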

Additional observations from a re-analysis of the deposited data

How the results depend on the processing

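With all 6 libraries, the count of members higher was 22 to 24 under DESeq2 size factors, upper quartile scaling, scaling without these genes and complex I, no filter, a filter of at least 1 CPM in 3 libraries, limma-voom and robust dispersions, and 28 by DESeq2. The count of members lower was 0 under every alternative, and the median of all genes moved by under 0.1 on the log2 scale. Over all genes, edgeR called 676 higher and 547 lower, and DESeq2 called 1125 and 1001. With each library left out in turn, members higher ranged from 0 to 29, genes higher from 75 to 941 and genes lower from 53 to 730. The log2 change of Hspb6 ranged from -1.99 to -0.64 over the same fits, an alternative chosen after seeing the data. It was called only without the library labelled Hsp20 KO replicate 1. The members' median ranged from 0.44 to 0.65 over these fits. No change reversed its sign under any alternative. With a replicate block, 7 members were called higher (Sdhd, Uqcrfs1, Uqcrq, Uqcr10, Cycs, Cox5b and Cox7b), and 226 genes higher and 169 lower over all genes. The labels do not say whether same-numbered mice were paired. The correlations of same-numbered libraries were -0.038, 0.092 and -0.096, and not every library correlated best with its own number. With 3 libraries per group, these correlations cannot decide whether the mice were paired. The cause of these shifts was not tested. Every member had at least 310 counts in every library, and the effect of depth on the calls was not tested.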
